A study of Homo sapiens with 6 samples.

Results

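Genes of 4 families of actin-binding proteins were followed in HaCaT cells, an immortalized human keratinocyte line, after disruption of STUB1. The 10 genes were DBN1 and DBNL (drebrins), EZR, RDX and MSN (ezrin, radixin and moesin, the ERM proteins), TPM1, TPM2 and TPM4 (tropomyosins), and CNN2 and CNN3 (calponins). They were picked by symbol, with the knockout against control values of these libraries already known, from 20014 genes in the deposited table. Their differences between the groups are therefore given as a description, with no test. All 10 had a mean of at least 1 FPKM (a fragment count divided by transcript length and by library size), the level above which 11262 genes were tested. TPM3 and CNN1 complete the tropomyosin and calponin families but are not among the 10.

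The study compared HaCaT cells given a lentiviral CRISPR guide against STUB1 with HaCaT cells given a control guide, whose genotype is labelled WT, with no further treatment of either. STUB1, also called CHIP, is a ubiquitin ligase that works with the HSP70 and HSP90 chaperones. Cells were sorted into plates and colonies screened for the STUB1 protein by immunoblot, and 3 libraries of poly(A)-selected RNA were made for each group. Whether they stem from 1 clone, several clones or repeat preparations is not stated, so every p-value below reflects spread among libraries that may be only technical.

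Actin filaments are shaped by proteins that bind along their sides, cap their ends or tie them to membranes. Tropomyosins are coiled coils that lie along the filament and set which myosins and severing proteins can reach it, and calponins bind filaments alongside them. Ezrin, radixin and moesin link the filament to membrane proteins once phosphorylation opens them, ezrin above all in microvilli of epithelia. Drebrin bundles filaments and is best known in neurons, while drebrin-like protein, encoded by DBNL, links filaments to endocytosis. Many genes of this kind carry CArG boxes, the sites of serum response factor (SRF), whose MRTF coactivators respond to the pool of free actin.

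The promoters below are shown because DBN1 had the largest difference of the 10 genes, EZR the largest loss in FPKM, and CNN2 and TPM4 were the members with a CArG box. Each runs from 250 bases before to 50 after a RefSeq start site (GRCh38.p14), 5′ to 3′ on the gene's strand. Capitals mark a CArG box in CNN2 and TPM4, and in EZR a match to the NF-kB motif followed by an AP-1 site.
DBN1, first start site (chr5:177473585-177473884, minus strand): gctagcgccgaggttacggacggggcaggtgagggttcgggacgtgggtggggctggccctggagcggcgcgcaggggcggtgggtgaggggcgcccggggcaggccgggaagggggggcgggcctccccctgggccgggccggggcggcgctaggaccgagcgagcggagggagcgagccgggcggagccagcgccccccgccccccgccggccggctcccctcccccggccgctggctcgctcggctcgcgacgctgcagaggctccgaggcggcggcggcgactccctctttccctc
EZR (chr6:158818186-158818485, minus strand): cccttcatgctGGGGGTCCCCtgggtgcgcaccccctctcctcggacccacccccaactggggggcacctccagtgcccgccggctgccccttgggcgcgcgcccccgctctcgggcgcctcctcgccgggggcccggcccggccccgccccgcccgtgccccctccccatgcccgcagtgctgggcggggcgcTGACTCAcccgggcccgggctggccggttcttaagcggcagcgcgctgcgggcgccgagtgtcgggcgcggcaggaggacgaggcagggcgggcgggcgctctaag
CNN2 (chr19:1026358-1026657, plus strand): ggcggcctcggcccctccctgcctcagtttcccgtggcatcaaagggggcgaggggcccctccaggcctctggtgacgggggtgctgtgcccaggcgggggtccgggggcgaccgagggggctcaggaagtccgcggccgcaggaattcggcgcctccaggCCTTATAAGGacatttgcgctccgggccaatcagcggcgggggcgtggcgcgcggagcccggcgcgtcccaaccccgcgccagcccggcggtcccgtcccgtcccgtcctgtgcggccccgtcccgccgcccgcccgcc
TPM4, first start site (chr19:16067288-16067587, plus strand): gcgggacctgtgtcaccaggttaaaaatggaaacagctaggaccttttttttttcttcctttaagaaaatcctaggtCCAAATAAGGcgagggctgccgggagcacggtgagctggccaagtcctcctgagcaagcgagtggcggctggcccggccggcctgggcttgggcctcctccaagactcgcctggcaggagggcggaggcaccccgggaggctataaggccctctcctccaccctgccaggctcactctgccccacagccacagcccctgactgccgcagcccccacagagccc

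Both strands of the 16 RefSeq promoters of the 10 genes were searched, and overlapping matches of different motifs were each counted. The CArG box was found in CNN2, as CCTTATAAGG at 89 bases before the start, and in the first of the 3 TPM4 promoters, as CCAAATAAGG at 173 bases before it. It was present in 1.3% of all 35116 promoters of the same length. The AP-1 site (TGANTCA) was found in EZR alone among the 10 genes, as TGACTCA, and in 7.7% of all promoters. The NF-kB motif was matched in EZR (GGGGGTCCCC) and in the second TPM2 promoter (GGGACGTCCC), against 11.3% of all promoters. GGGCGG, the GC box, was in 15 of the 16 promoters and in 45.0% of all, and these promoters had a GC content of 56.7% to 81.3%, where the median of all was 58.7%. CATTCC, the TEAD motif, was found in 1 CNN3 promoter (14.0% of all) and TATAAA in none (11.5% of all). A match describes these letters only.

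Libraries summed to 410756 to 447332 FPKM. Under the best-fitting library size only 60.0% to 66.3% of low values lay within 0.15 of a whole fragment, so fragments were not recovered, the depth is unknown and no counting interval is given. Control 3 stood apart, with Pearson's r of 0.988 and 0.986 across genes to controls 1 and 2, which had 0.998 with each other. STUB1 mRNA ranged from 21.6 to 24.7 FPKM in knockout and from 37.8 to 52.7 FPKM in control libraries. Of 6 keratinocyte markers 5 reached 1 FPKM, with sums of 890.6 to 999.7 FPKM in knockout and 722.2 to 803.1 in control libraries. KRT5 and COL17A1 were higher in every knockout library, while TP63, SFN, ITGB4 and KRT14 overlapped. KRT14, a defining basal keratin, was nearly absent in every library (0.162 to 0.328 FPKM). The summed level of 9 fibroblast and smooth muscle markers was 1.49 to 1.67 FPKM in knockout against 1.10 to 1.41 in control libraries. DCN and DES were listed at 0, as was CNN1, the smooth muscle calponin. Sums for the other marker lists were 5.00 to 5.93 against 5.30 to 5.64 FPKM for 5 melanocyte genes, of which PMEL alone reached 1, 22.6 to 25.4 against 20.95 to 21.96 for 4 leukocyte genes, of which CD68 alone did, and 1.88 to 2.01 against 2.07 to 3.03 for 3 endothelial genes. The part of any other cell type in the differences was not tested. In bulk RNA, fewer cells of a type and less RNA per cell cannot be told apart.

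In control cells TPM4, EZR and MSN were the most abundant of these genes, at means of 135.9, 134.9 and 119.5 FPKM, and neighbours in this order overlapped. CNN2 (59.5 FPKM) and TPM3 (56.1 FPKM) followed and also overlapped. RDX stood at 12.2 FPKM, DBNL and CNN3 overlapped at 9.77 and 9.59, and TPM1 (6.59), DBN1 (2.95) and TPM2 (1.45) came last without overlap. In the knockout the order changed: MSN (136.2 FPKM) stood above EZR (86.2), EZR overlapped with CNN2 (82.7), TPM1 (9.91) stood above CNN3 (5.57), and DBN1 (0.679) was last. FPKM is per length, so these levels can be set side by side, although each gene's length depends on which isoforms the authors' annotation held.

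**Figure D1:**
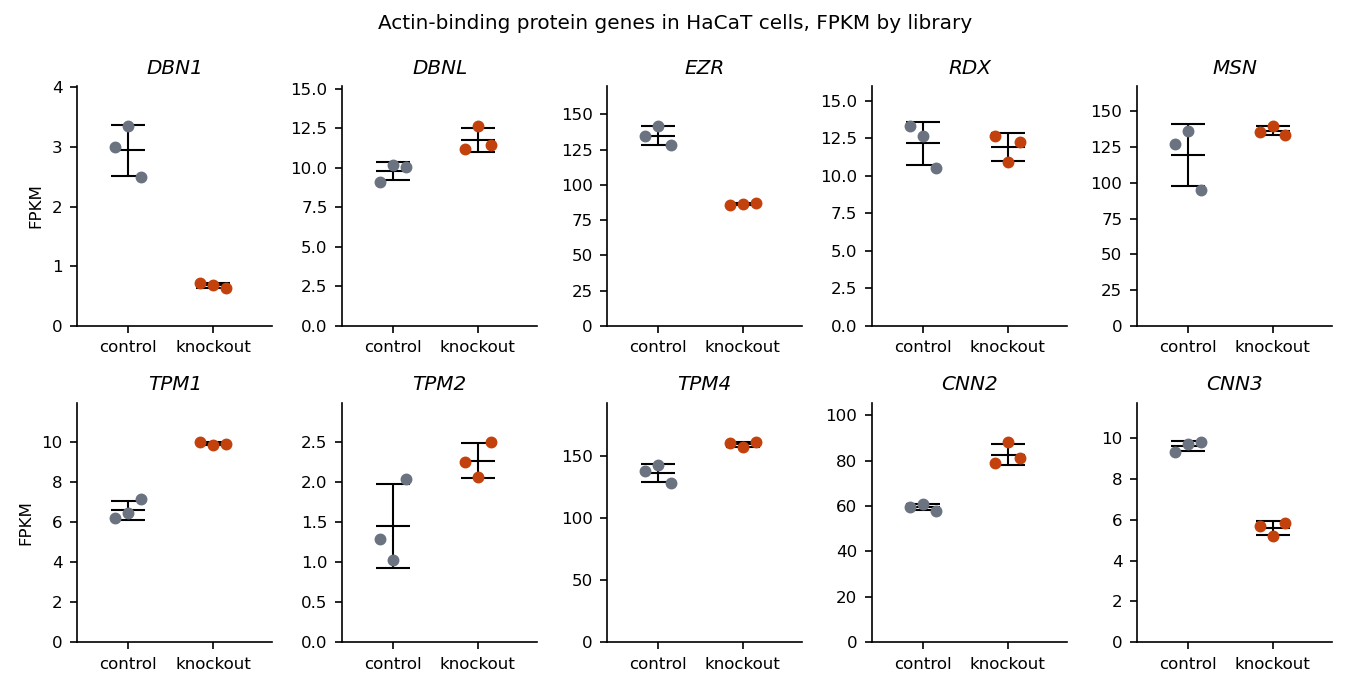
FPKM (vertical axes, from 0, a scale per gene) of the 10 genes in 3 control and 3 knockout libraries; points are libraries in replicate order, and bars give the mean and 1 SD. DBN1, EZR and CNN3 were lower in all 3 knockout libraries, DBNL, TPM1, TPM2, TPM4 and CNN2 were higher in all 3, and RDX and MSN overlapped.

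The clearest difference was in DBN1. It measured 0.713, 0.683 and 0.641 FPKM in knockout libraries 1 to 3, and 2.99, 3.35 and 2.50 FPKM in controls 1 to 3. Every knockout library was far below the lowest control, and the mean was 23.1% of control (0.679 ± 0.0362 against 2.95 ± 0.429 FPKM, SD, n = 3 each). On the log2(FPKM + 1) scale the difference was -1.23 (SE 0.0858). The pseudocount of 1 compresses so low a gene, and with 0.1 the difference was -1.96. DBN1 lies on chromosome 5 at 177456608 to 177474401 (GRCh38, minus strand) and shares no exonic bases with another annotated gene.

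Its relative DBNL, which carries the same actin-depolymerizing factor (ADF) homology domain, was not lower. It measured 11.2, 12.6 and 11.5 FPKM in knockout libraries and 9.11, 10.2 and 10.03 FPKM in the control, so all knockout libraries were higher, at 120.3% of the control mean (log2 difference 0.24, SE 0.0790). Once each library was corrected for GC content and gene length, that difference was 0.02. DBNL shares 857 exonic bases with PGAM2 on the opposite strand. No strand setting is given in the sources used here, so those reads cannot be told apart. DBNL also shares 708 exonic bases with AC017116.1 on the same strand. DBN1 made up 23.1% ± 2.80 of the summed drebrin FPKM in control and 5.48% ± 0.461 in knockout libraries (SD, n = 3 each). The sum itself was 12.7 ± 0.721 and 12.4 ± 0.779 FPKM, most of it from DBNL.

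Among the ERM genes EZR was the one whose groups did not overlap. It measured 85.4, 86.2 and 86.9 FPKM in knockout libraries and 134.9, 141.7 and 128.2 FPKM in the control. EZR spans 158765741 to 158819412 on chromosome 6 (GRCh38, minus strand). Its groups were well apart, with the knockout mean at 63.9% of control (log2 difference -0.64, SE 0.0707). The summed level of 4 simple epithelium markers (EPCAM, CDH1, KRT8 and KRT18) was also lower, at 708.3 to 714.9 FPKM in knockout against 901.3 to 1045.6 in control libraries. EPCAM, KRT8 and KRT18 were lower in every knockout library and CDH1 overlapped, and the part of these markers in the EZR difference was not tested. MSN measured 135.4, 139.7 and 133.6 FPKM in knockout libraries and 127.3, 136.4 and 94.8 FPKM in the control. The groups overlapped, and the difference of 0.20 (SE 0.125) was 0.05 without control 3, the lowest library. RDX measured 12.7, 10.9 and 12.2 against 13.3, 12.6 and 10.5 FPKM, overlapping throughout (log2 difference -0.02, SE 0.0986; 0.07 after the GC and length correction). Ezrin mRNA thus went from 50.9% ± 3.50 to 36.8% ± 0.473 of the summed ERM FPKM and moesin mRNA from 44.6% ± 3.45 to 58.1% ± 0.808 (SD, n = 3 each). The ERM sum was 275.5, 290.7 and 233.6 FPKM in the controls and 232.7 to 236.8 FPKM in the knockout, so control 3 lay within the knockout range.

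Tropomyosin genes were higher in the knockout for TPM1, TPM2 and TPM4. TPM1 measured 9.97, 9.86 and 9.92 FPKM in knockout libraries and 6.22, 6.43 and 7.13 in the control. The knockout libraries differed little from one another and all exceeded the controls, at 150.4% of control (log2 difference 0.53, SE 0.0742). TPM4, the main tropomyosin gene of these cells, measured 160.0, 156.9 and 160.5 against 137.9, 142.1 and 127.6 FPKM, also without overlap, at 117.1% of control (log2 difference 0.23, SE 0.0732). TPM2 was scarce, at 2.25, 2.06 and 2.49 against 1.29, 1.02 and 2.04 FPKM. The lowest knockout library barely exceeded control 3, and the log2 difference of 0.44 (SE 0.134) was 0.60 without that control, 0.31 without control 2 and 0.66 with a pseudocount of 0.1. TPM3 measured 58.7, 58.7 and 57.3 against 53.5, 56.3 and 58.4 FPKM, with overlapping groups (log2 difference 0.05, SE 0.0682). Summed, the 4 tropomyosin genes came to 229.5 ± 1.81 FPKM in knockout libraries and 200.0 ± 5.44 in the control (SD, n = 3 each), and TPM4 supplied 69.3% and 67.9% of it. A gene's FPKM does not separate the isoforms that tropomyosin genes make from several starts. For TPM1, GENCODE 29 lists 34 transcripts with 31 distinct first bases, which is not a count of promoters. The RefSeq promoters searched held 1 for TPM1. TPM1 also shares 2070 exonic bases with TPM1-AS and 691 with AC079328.2, and TPM4 shares 829 with AC008894.3, all on the opposite strand.

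The calponin genes differed in opposite directions. CNN2 measured 78.8, 88.0 and 81.2 FPKM in knockout libraries and 59.7, 60.8 and 58.0 in the control, all knockout libraries being higher (139.0% of control, log2 difference 0.47, SE 0.0721). CNN3, the acidic calponin, measured 5.68, 5.19 and 5.85 against 9.33, 9.68 and 9.77 FPKM, all knockout libraries being lower (58.1% of control, log2 difference -0.69, SE 0.0731). CNN3 thus supplied 13.9% ± 0.473 of the calponin FPKM in control and 6.34% ± 0.664 in knockout libraries (SD, n = 3 each). GENCODE 29 lists 11 pseudogenes named after CNN2, so some of its reads may be shared. CNN2 also shares 338 exonic bases with AC011558.1 on the opposite strand.

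**Figure D2:**
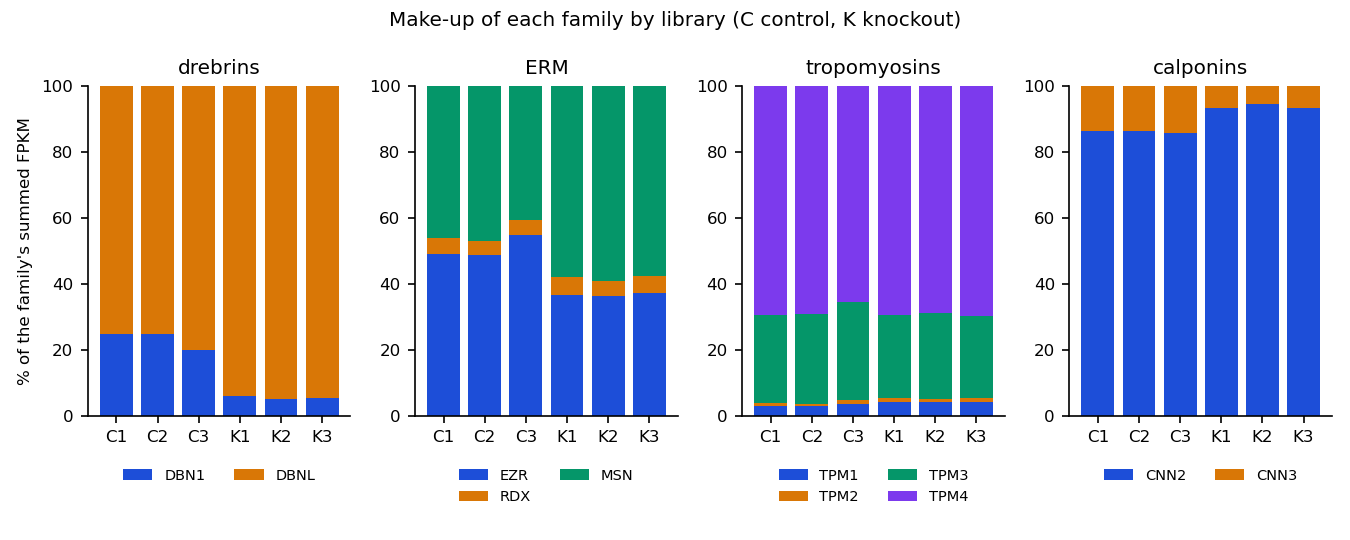
Share of each gene in the summed FPKM of its family (vertical axis, percent) for control libraries C1 to C3 and knockout libraries K1 to K3. DBN1, EZR and CNN3 took smaller shares in every knockout library, while TPM4 supplied 67.9% of tropomyosin FPKM in the control and 69.3% in the knockout.

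The groups did not overlap for 8 of the 10 genes, 5 above and 3 below, against 45.6% of all tested genes, 20.4% above and 25.3% below. The genes were chosen with this contrast known, so nothing is read from these counts.

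The 10 genes lie on 9 chromosomes, and the genes around them differed. On GRCh38, DBNL spans 44044640 to 44069456 of chromosome 7, RDX 109864295 to 110296722 of chromosome 11, MSN 65588377 to 65741931 of the X chromosome and CNN3 94896949 to 94927278 of chromosome 1. TPM1 spans 63042632 to 63071915 of chromosome 15, TPM2 35681992 to 35690121 of chromosome 9, TPM4 16067021 to 16103005 of chromosome 19 and CNN2 1026581 to 1039068 of the same chromosome. Of 21 tested genes that start within 5 Mb of EZR on chromosome 6, all 21 were below 0, 17 were called lower by limma, and the median log2 difference was -0.53. EZR at -0.64 was thus close to its surroundings, with 5 neighbours further below 0, the furthest at -0.91. DBN1 was unlike its own: of 64 neighbours 7 were called higher and 4 lower, the median was 0.04 and the lowest neighbour stood at -0.62. The neighbour with the highest value, 0.60, was PDLIM7, a LIM protein of actin stress fibres that starts 23.2 kb upstream of DBN1. CNN3 was below all 30 of its neighbours (median -0.12, 1 higher and 6 lower by limma), and TPM1 was above all 52 of its own (median -0.02, 1 higher and 4 lower).

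CNN2 and TPM4 both lie on chromosome 19, where most neighbours were slightly above 0. The median was 0.12 over the 120 genes near CNN2, 4 of which exceeded it, and 0.11 over the 161 genes near TPM4, 35 of which exceeded it. MSN, on the X chromosome, was above all 10 of its neighbours, of which 5 were called lower (median -0.13). DBNL (35 neighbours, median 0.03), RDX (36, -0.09) and TPM2 (65, 0.06) had surroundings near 0.

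**Figure D3:**
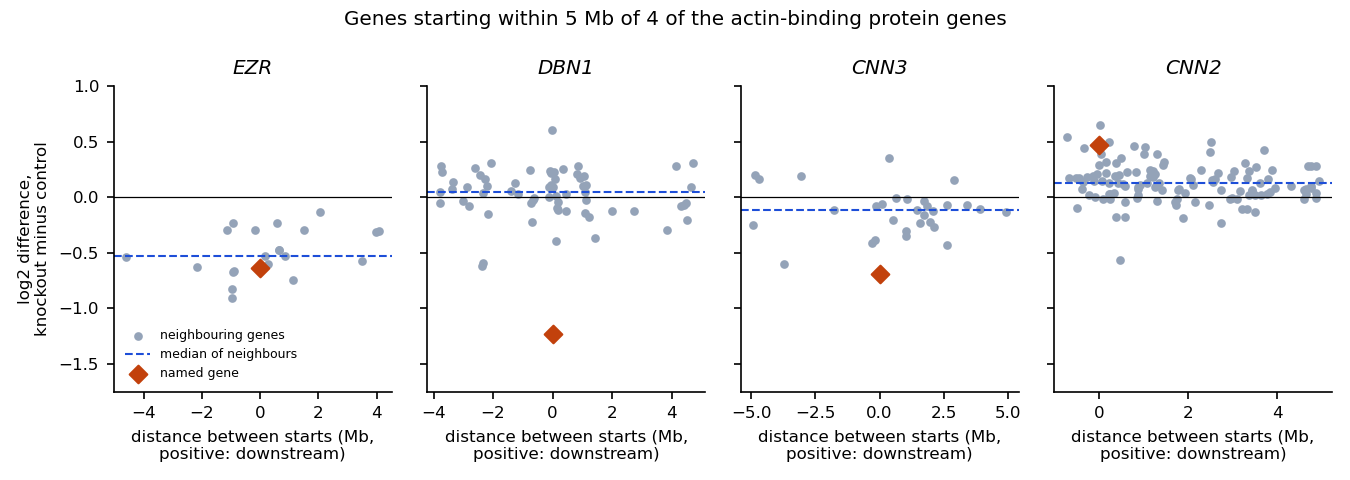
Log2 difference, knockout minus control (vertical axis), of genes that start within 5 Mb of EZR, DBN1, CNN3 and CNN2, against the distance between starts along the gene's direction (horizontal axis, Mb); the diamond is the named gene and the dashed line the median of its neighbours. EZR lies among neighbours with a median of -0.53, while DBN1 and CNN3 lie below every neighbour.

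Profiles most like that of DBN1 over the 6 libraries, by root mean square distance of centred log2(FPKM + 1) values, belonged to TNFSF18 (0.0750), GLB1L2 (0.0886), SRPX (0.106) and MAGED1 (0.112), out of 11261 other genes. The group difference is part of these centred values, so genes with a difference of like size rank near, and shared regulation was not tested. TNFSF18 encodes GITRL, a ligand of the TNF family. Among those most like TPM1, the member furthest above control on the log2(FPKM + 1) scale (TPM2 had the larger ratio, 156.5% against 150.4% of control), were SDHA (0.0218), a subunit of succinate dehydrogenase, PCOLCE (0.0327), a procollagen peptidase enhancer, and RHBDD2 (0.0356).

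The wider actin machinery was read from 10 lists chosen by textbook role, with earlier results of these data known. The shares and p-values for these lists are therefore descriptive and not independent support. Of 130 genes, 109 were tested, of which 13 rose, 11 fell and 85 did not pass (limma, Benjamini-Hochberg), so 22% were called, against 22.9% of all tested genes (9.58% higher and 13.3% lower). As TPM, 29.1% of the calls over all genes were higher, against 41.8% with FPKM as deposited. Their median log2 difference was 0.11, against -0.01 for all tested genes. Leaving out control 3 gave 36 higher and 15 lower of the 109, against 2103 and 2418 of all 11262 tested genes. Leaving out control 2 gave 21 and 10, against 1349 and 1426 of all tested genes. Without control 1 or any 1 knockout library 10 to 14 list genes were called, against 1030 to 1500 of all tested genes. Of the 24 genes called, 9 passed whichever single library was left out: NHERF1, ACTG1, PFN2, GSN, CALD1, SYNPO, WASF1, CYFIP1 and PDLIM7. The other 15, MRTFA among them, each lost the call without at least 1 knockout library, with limma adjusted p of up to 0.155.

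**Figure D4:**
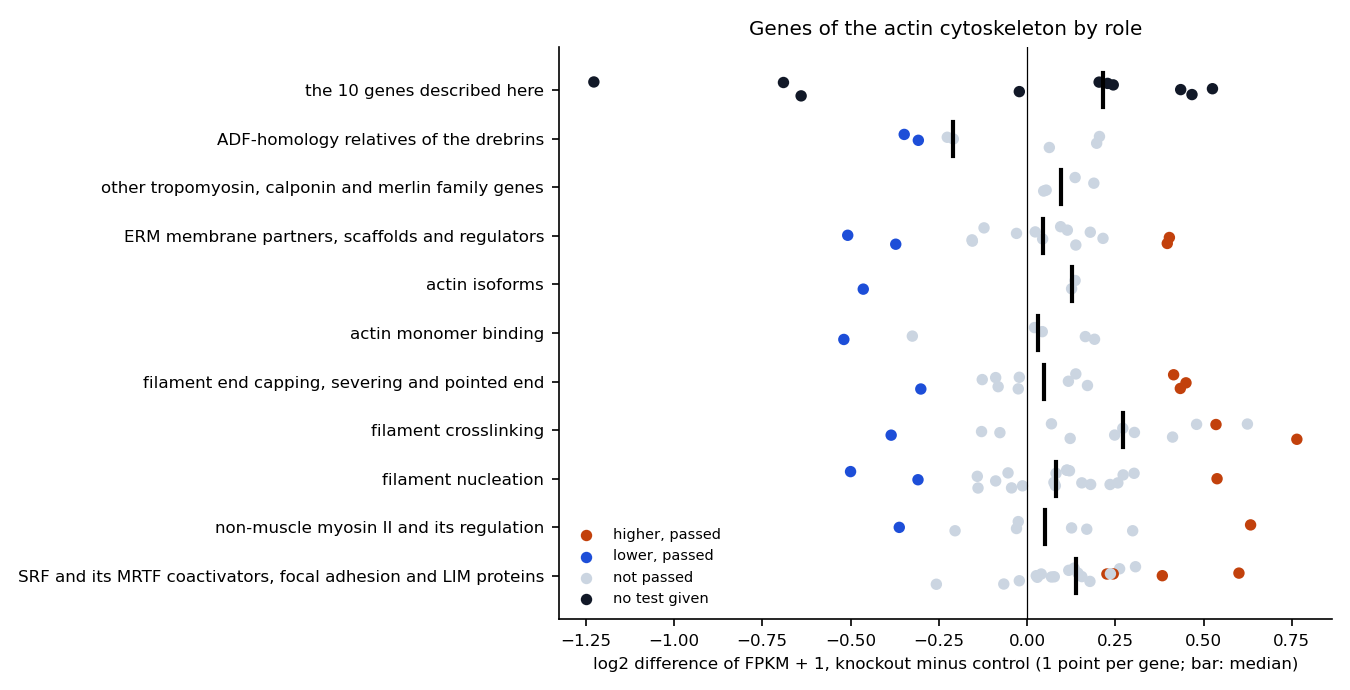
Log2 difference of FPKM + 1, knockout minus control (horizontal axis), for the 10 genes and for the tested genes of 10 lists of the actin cytoskeleton; 1 point is a gene, the bar is the median, and colour gives the limma call (none is given for the 10 genes). Of the 109 tested list genes 13 passed as higher and 11 as lower.

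Relatives of the drebrins showed 2 calls. Of 7 tested ADF-homology genes none rose, while GMFB, which disassembles branched filaments, fell to 77.2% of control and TWF1, encoding twinfilin, to 80.9%. Both calls were weak: limma adjusted p was 0.029 for GMFB and 0.05 for TWF1, and neither passed without knockout 1, 2 or 3 or control 1 (0.0529 to 0.146), without the filter (0.0538 and 0.0835) or after correction for GC and length, where the log2 values were -0.15 and -0.08. TWF1 was also lost without control 2 (0.0632) and with a pseudocount of 0.1 (0.0517). Of TPM3, NF2 (merlin, the ERM-like tumour suppressor), TAGLN and TAGLN2 (transgelins, calponin relatives), none passed by limma. TAGLN2 alone had an unadjusted p under 0.05 (0.0451), and 1 gene passed after the correction and 1 without control 3.

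Among ERM partners and regulators 15 were tested, 2 rose (MUC1 among them), 2 fell (NHERF1 and ARHGDIA) and 11 did not pass. Without knockout 1 the calls were 1 higher and 1 lower, without knockout 2 they were 0 and 2, and without knockout 3 they were 0 and 1. As TPM 1 was higher and 2 lower, and with the GC and length correction the calls were 3 and 3. NHERF1 (EBP50), the scaffold that ezrin binds in microvilli, was at 15.7, 17.0 and 15.9 FPKM in knockout and 22.03, 23.5 and 24.9 FPKM in control libraries. Like EZR it was lower in every knockout library, at 69.0% of control (log2 difference -0.51, SE 0.0753, limma adjusted p = 0.00213). Genes around list genes were counted only for CYFIP1 and WASF1, so those around NHERF1, ARHGDIA and ACTG1 were not examined. CD44, the classical ERM receptor, did not pass, at 168.6 ± 5.34 against 153.4 ± 10.03 FPKM (SD, n = 3 each; limma adjusted p = 0.224). PDPN, encoding the ERM-binding podoplanin and named after its values were seen, lay under the filter, at 0.262, 0.234 and 0.363 FPKM in knockout against 0.024, 0.098 and 0.052 FPKM in control libraries (limma without the filter, adjusted p = 0.00921).

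Of 3 tested actin genes 1 fell. ACTG1, encoding gamma-actin, was at 72.4% of control (433.7 ± 20.2 against 599.1 ± 42.6 FPKM, SD, n = 3 each; limma adjusted p = 0.00642), while ACTB, encoding beta-actin, measured 991.0 ± 77.7 against 902.4 ± 81.6 FPKM (adjusted p = 0.361 by limma). The difference between these changes was not tested, and reads of near-identical actin genes and pseudogenes may be shared. Of 6 genes for monomer-binding proteins PFN2, a profilin, fell to 58.0% of control (limma adjusted p = 0.000898).

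Of 12 tested genes in the list of end-binding and severing proteins, which also held CALD1, 3 rose and 1 fell. CALD1, encoding caldesmon, which binds along filaments with tropomyosin, rose to 141.1% of control (11.5 ± 0.680 against 8.13 ± 0.420 FPKM, SD, n = 3 each; limma adjusted p = 0.00412). GSN, encoding the severing protein gelsolin, rose to 137.9% (limma adjusted p = 0.00432; 0.0549 after correction for GC and length, where the log2 value went from 0.43 to 0.25). Tropomodulin genes TMOD1 and TMOD3, which cap tropomyosin-coated pointed ends, were at 93.2% and 98.0% of control and did not pass. TMOD2, named after its values were seen, lay under the filter, at 0.231, 0.202 and 0.234 FPKM in knockout against 0.495, 0.409 and 0.442 FPKM in control libraries (limma without the filter, adjusted p = 0.00371).

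Crosslinker genes had a median of 0.27 over 13 tested genes, of which 2 rose, 1 fell and 10 did not pass. In alternative fits 6 rose with the replicate number as a block, 7 without control 2 and 6 without control 3. Without any 1 knockout library 1 rose, and without control 1 it was 2. SYNPO, encoding synaptopodin, rose to 237.6% of control (2.40 ± 0.0738 against 1.01 ± 0.228 FPKM, SD, n = 3 each; limma adjusted p = 0.000777), with a log2 difference of 0.76 that was 1.19 at a pseudocount of 0.1. Of 21 tested nucleation genes 1 rose and 2 fell, and 3 rose with the block, 6 with the correction for GC and length and 8 without control 3. Over all genes in these fits 1368, 1543 and 2103 were higher, against 1079 in the main fit. Without control 1 or any 1 knockout library, 1 nucleation gene was higher and 1 lower. The called genes of the WAVE complex, which activates Arp2/3, went both ways. CYFIP1 rose to 147.2% and WASF1 fell to 68.2% of control (limma adjusted p = 0.00119 and 0.00168). WASF2, ABI1, NCKAP1 and BRK1 of the same complex did not pass (limma adjusted p = 0.249, 0.425, 0.738 and 0.0522). CYFIP1 and WASF1 both lay among genes that differed in the same direction. Of 5 tested neighbours of CYFIP1 on chromosome 15 all were above 0 and 4 were called higher (median 0.32), and of 30 tested neighbours of WASF1, on chromosome 6 like EZR, all were below 0 and 26 were called lower (median -0.53).

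Of 8 tested genes for non-muscle myosin II and its regulation 1 rose and 1 fell. MYH9, the main heavy chain, was at 152.2% of control (log2 difference 0.63, limma adjusted p = 0.0219). The log2 value was 0.42 without control 3 and 0.45 after the GC and length correction. MYH9 did not pass without knockout 1, 2 or 3 (limma adjusted p = 0.0672, 0.120 and 0.0544) or without the filter (0.0606). MYL9, a light chain named here after its values were seen, lay under the filter, at 1.62, 1.33 and 1.598 FPKM in knockout against 0.249, 0.335 and 0.308 FPKM in control libraries. That is 5.11 times the control mean (limma without the filter, adjusted p = 0.000665). FMNL3, a gene of the nucleation list under the filter, also passed in that fit, at 0.834 against 0.606 FPKM (limma adjusted p = 0.0112). PDPN, TMOD2, MYL9 and FMNL3 were picked by their values from the list genes under the filter. Their p-values are therefore descriptive.

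SRF with its coactivators and the focal adhesion and LIM proteins gave 4 genes that rose, none that fell and 16 that did not pass among 20 tested. With the GC and length correction the calls were 5 higher and 2 lower, with the block added 6 and 2, without control 2 they were 6 and 0, and without control 3 they were 6 and 1. As TPM, or without control 1 or any 1 knockout library, 1 was higher and none lower. That gene was PDLIM7, the neighbour of DBN1, at 28.2, 31.6 and 28.4 FPKM in knockout against 18.5, 19.3 and 19.4 FPKM in control libraries (154.4% of control, log2 difference 0.60, SE 0.0730; limma adjusted p = 0.000905). The PDLIM7 log2 difference was 0.43 after the GC and length correction. SRF itself measured 16.7 ± 1.17 against 13.8 ± 1.72 FPKM and did not pass (SD, n = 3 each, limma adjusted p = 0.0796).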

How the data were processed

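The authors deposited 1 table of FPKM values, rounded to 3 decimals, for 20014 Ensembl genes in 6 libraries. Upstream, per the submitters' processing notes, the build was GRCh38.p13 and the tools, whose roles are not listed, were Cufflinks, edgeR 3.6.3, featureCounts 1.6.3, HISAT2 2.0.5 and Trimmomatic 0.36. The sources used here give no annotation release, strand setting or scaling between libraries. A table of identifiers named 19991 genes and GENCODE 29 the other 23, and coordinates, lengths and GC content are those of GENCODE 29 on GRCh38. FPKM is no count, so limma 3.58.1 (R 4.3.3) was run on log2(FPKM + 1) for genes with a mean of at least 1 FPKM, with genotype alone in the model, a mean-variance trend, and Benjamini-Hochberg adjustment at 0.05. It was tested on simulated data. Python 3.11.15 drew the plots. An exact permutation test of 3 against 3 cannot go below 0.1 and was not used.

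The members and lists were chosen with earlier results of these data known. Besides the 10 members, TPM3, CNN1 and STUB1, the text names up to 3 called genes per list by smallest p, the 4 nearest profiles of the members furthest above and below control on the log2(FPKM + 1) scale (1 is not reported here), and others where stated or as context for a list. Knockout and control libraries with the same number deviated together (r of 0.375, 0.150 and 0.188 over genes, after removing group means), so the numbers may pair libraries, although no label states a shared day. The replicate block was run as an alternative and is not in the main model. Alternatives were a pseudocount of 0.1, no filter, TPM, a per-library spline correction (4 degrees of freedom each) for GC content and length, a replicate block, the last pair together, and leaving out each library.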

Additional observations from a re-analysis of the deposited data

How the results depend on the processing

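Over all tested genes 2579 changed, 1079 higher and 1500 lower. Leaving out 1 library gave 1030 to 4521 changed, 391 to 2103 higher and 639 to 2418 lower. As TPM 667 were higher and 1622 lower, so that 29.1% of calls were higher against 41.8%, and the median of all genes was -0.05. For the actin lists (24 changed, 13 higher, 11 lower), leaving out 1 library gave 10 to 51 changed, 5 to 36 higher and 4 to 15 lower. The GC and length correction gave 21 higher, and 23 with the replicate block added, with 11 lower in both. Over all 11177 genes in these fits, 1543 were higher and 1621 lower with the correction, and 1335 and 1444 with the block added. The cause was not tested. As TPM 9 were higher and 12 lower. With the replicate block alone 3051 genes changed, and 19 list genes were higher and 11 lower; of the 24 calls, ZYX alone was lost (adjusted p = 0.0508). Among the members RDX alone changed sign, with -0.02 as the main value and 0.07 under the GC and length correction (with or without the block), 0.04 without knockout 2 or control 1, and 0.01 without control 2. Fragments were not recovered, so counting error is unknown. It weighs most on PDPN, TMOD2, FMNL3, MYL9, SYNPO, DBN1, TPM2 and PFN2, the lowest genes named with a difference.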
